A study of Homo sapiens with 4 samples.

Results

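The potassium channel genes were taken as the protein-coding genes of GENCODE release 29 whose symbol starts with KCN. The 4 KCNIP genes, which encode calcium-binding partners of channels, were left out by rule. The rule gave 93 of 19922 protein-coding genes, and genes with no site were kept. The study sequenced RNA that came down with PARP1, a nuclear enzyme that senses DNA breaks and builds ADP-ribose chains. The cells were HK-2, a human proximal tubule epithelial line made immortal in culture. The study had 4 samples of 1 cell line, 2 PARP1 immunoprecipitations (IP 1 and IP 2, made with a Flag antibody) and 2 inputs, and the labels name no genetic change, treatment or time. The values are 1 list for each IP of single mutated bases (sites) on GRCh38, with the sequenced tags over the base, the tags that carry a mutation and the gene to which the authors gave it. The lists gave the potassium channel genes 654 of 166248 sites in IP 1 and 820 of 229782 in IP 2. The inputs were not analysed here and the samples given hold no control IP, so the values describe which transcripts were seen and not how much more of them came down with PARP1. Nothing in the labels ties the 2 IPs to separate cultures, and the spread between them may be technical. Fewer cells carrying a transcript and less of it per cell cannot be told apart in such bulk samples. Intervals are exact (Clopper-Pearson, 95%) and cover counting error only, because amplified tags without molecular identifiers are not independent molecules.

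Potassium channels are membrane pores that set the resting voltage of a cell and end its electrical signals. Voltage-gated channels open on depolarisation, calcium-activated channels couple opening to calcium, inward rectifiers pass inward current more easily than outward, and two-pore-domain channels carry background leak. Auxiliary subunits have no pore and change how these channels open or reach the membrane. In the renal tubule such channels recycle potassium for the sodium pump, hold the voltage that drives transport and secrete potassium in the distal nephron.

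The potassium channel transcripts were seen unevenly. Sites in the sense orientation (on the coding strand of the gene) numbered 552 in IP 1 and 650 in IP 2. KCNMA1, the pore of the large-conductance calcium-activated channel, held 189 and 202 of them, or 34.2% and 31.1%, on 6.71% of the summed span of the family. KCNMA1, KCNH1 and KCNQ5 together held 353 and 366, or 63.9% and 56.3%, on 15.8% of the span. No sense site was listed in either IP for 40 genes, and the share of all protein-coding genes without one is not given here. With sites on either strand counted, 32.3% of the family and 28.1% of all protein-coding genes had none. The median gene had 0 sense sites in each IP, against medians of 1 and 2 over all protein-coding genes. A large part of the family therefore had no sense site at this depth, at which a base was listed with a median of 2 tags.

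Any site on either strand was enough for a gene to be named in an IP. Of the 93 genes, 39 (41.9%) were named in both IPs, where 55.5% of all protein-coding genes were. IP 1 named 48 (61.6% of all protein-coding genes) and IP 2 named 54 (65.7% of all). In all, 24 were named in 1 IP only, 9 of them in IP 1 and 15 in IP 2, and 30 were named in neither (28.1% of all). A sense site in both IPs was found for 34 (50.8% of all), and 8 shared a base, meaning that both IPs listed a sense site there (14.1% of all). Of the 93, 33 share part of their span with another gene on the same strand, where the gene of a site is less certain. Without those, 22 of 60 genes were named in both. The spans of the family held 581 and 691 sites on the strand of the gene, of which the authors gave 552 and 650 to that gene and 22 and 33 to no gene, so counts per span can understate single genes.

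Gene span went with these counts. In the longest of 10 span groups of protein-coding genes (median 262 kb), 20 of 22 potassium channel genes were named in both IPs, a share of 90.9% beside 92.2% of all genes of that group. In the group of median 117 kb it was 5 of 10, beside 84.4% of all, and in the group of median 70.6 kb it was 2 of 7, beside 80.2%. Of the 14 potassium channel genes in the 2 shortest groups, none was named in both, beside 5.67% and 17.97% of all genes there. The share of potassium channel genes was below that of all genes in each of the 10 groups. The long potassium channel genes were named about as often as other long genes but mostly carried fewer sites. In the longest group their median was 0.0936 sense sites per 10 kb of span in IP 1 and 0.224 in IP 2, beside 0.406 and 0.562 for all genes of the group, and 18 of the 22 lay below the group's median in both IPs. These are descriptions of 1 cell line with no test, and how strongly each gene is transcribed was not measured here.

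**Figure D1:**
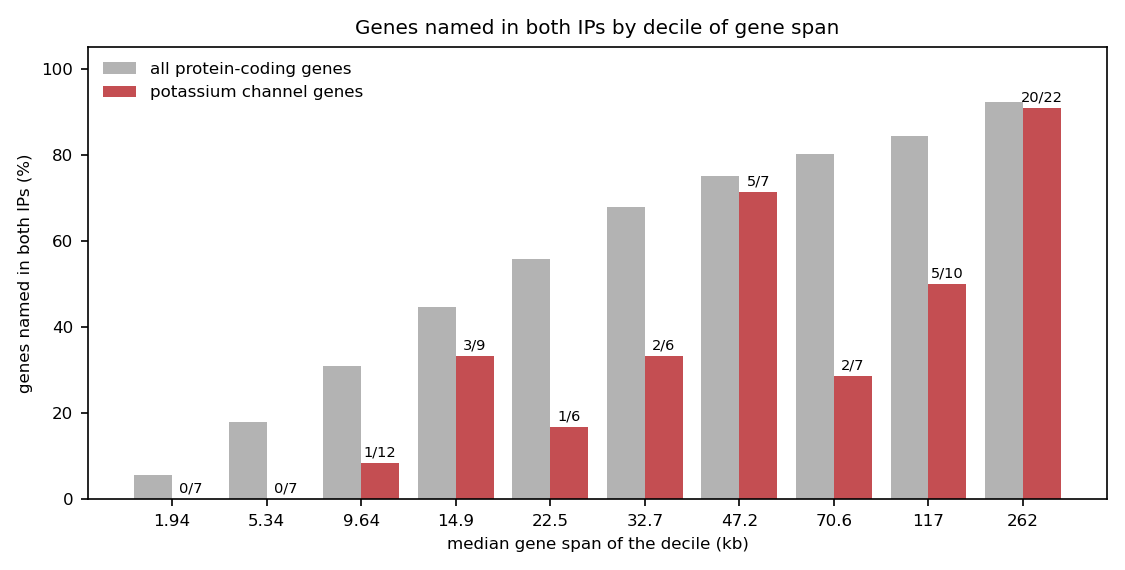
Percentage of genes named in both IPs (y axis) in 10 groups of protein-coding genes by gene span, labelled by the median span in kb (x axis), for all protein-coding genes (grey) and the 93 potassium channel genes (red, with the number named over the number in the group). The red bar is below the grey bar in each group, and the bars are closest in the group of median 262 kb, at 90.9% and 92.2%.

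KCNMA1 (ENSG00000156113; chromosome 10, 76869601 to 77638369, minus strand) encodes the pore-forming subunit of the channel known as BK or Slo, which opens with both voltage and calcium and in the kidney is known for flow-driven potassium secretion. It had 2.46 sense sites per 10 kb in IP 1 and 2.63 in IP 2, and the IPs differed little. In both IPs it was number 3 by this density among 159 protein-coding genes within 25% of its span, after SMYD3 and LPP, where the median gene had 0.170 and 0.308. Its 15 shared bases were the most there after the 22 of SMYD3, and the median gene had 0. KCNMA1 was singled out with these counts known, so its ranks are a description.

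The KCNMA1 sites lay in introns. In IP 1, 187 of 189 sense sites were intronic and the other 2 lay in the 3′ untranslated region (UTR), while all 202 of IP 2 were intronic. Sites were spread over the gene, with a median gap between neighbours of 2.11 kb in IP 1 and 2.22 kb in IP 2 and a largest gap of 32.7 kb and 31.7 kb. They were denser towards the start of the gene. The first 100 kb held 46 sites in each IP, a density of 4.6 per 10 kb, and the last 68.8 kb held 9 and 11, a density of 1.31 and 1.60. The second 100 kb held 24 in IP 1 and 52 in IP 2, the largest difference between the IPs among the 8 windows. The stretch before the midpoint of the gene held 60.3% (interval 53.0 to 67.3) of sites in IP 1 and 68.3% (61.4 to 74.7) in IP 2. In the transcript with the most coding bases, which has 30 exons, the first 3 introns held 134 and 154 sites on 58.8% of the gene span. The first intron alone (233 kb) held 75 and 104.

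**Figure D2:**
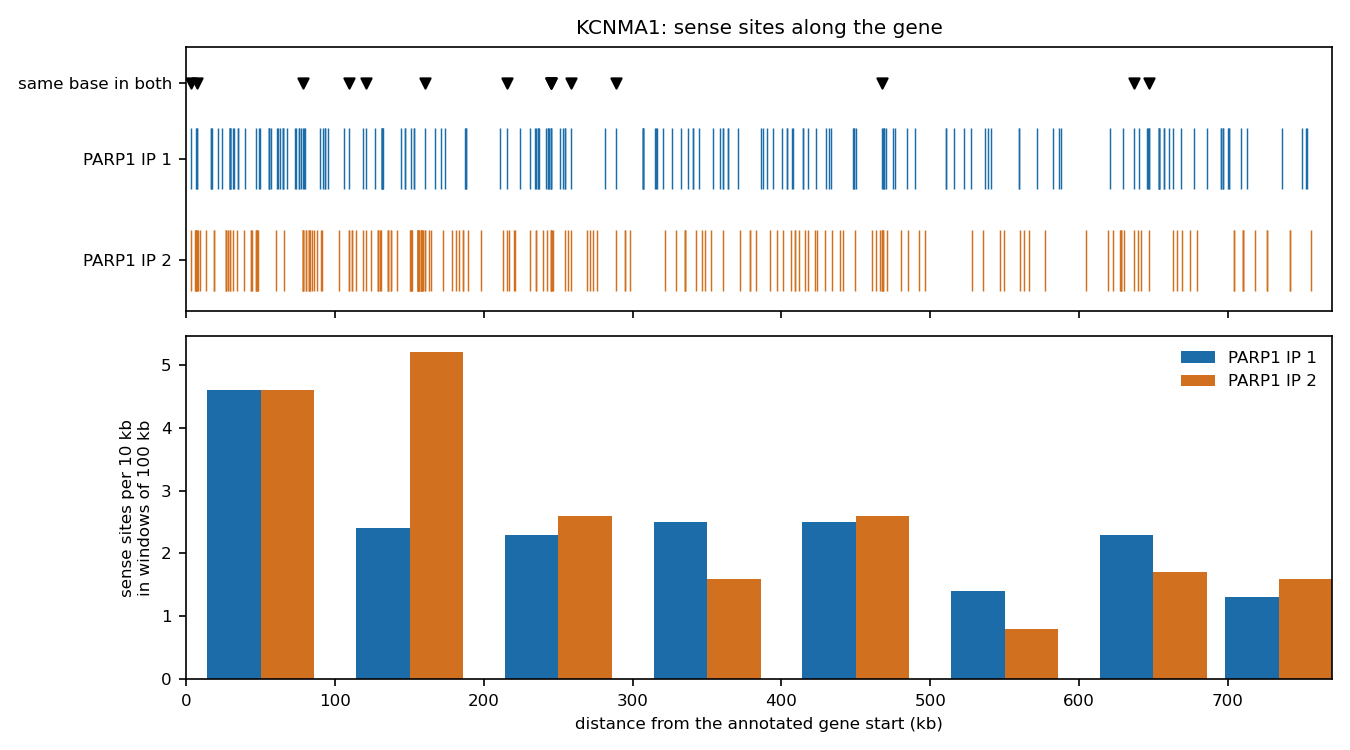
Sense sites of KCNMA1 by distance from the annotated gene start in kb (x axis). Top: 1 line per site in each IP, with triangles at bases listed in both. Bottom: sense sites per 10 kb in windows of 100 kb (the last is 68.8 kb). Both IPs are at 4.6 in the first window, IP 2 is higher in the second (5.2 against 2.4), and 12 of the 15 bases listed in both lie in the first 300 kb.

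The share of KCNMA1 sense sites listed at the same base in the other IP was 7.94% (interval 4.51 to 12.8) in IP 1 and 7.43% (4.22 to 12.0) in IP 2. In the other potassium channel genes it was 3.03% (1.52 to 5.36) and 2.46% (1.23 to 4.35), and over all protein-coding genes 4.96% and 4.11%. The intervals of KCNMA1 and of the other potassium channel genes overlap in both IPs, by little in IP 2. The most mutated shared base lay 2.81 kb from the gene start (position 77635554), a substitution with 6 of 6 tags mutated in IP 1 and 7 of 9 in IP 2. A second lay at 160 kb (77478137), with 3 of 3 and 4 of 5. An insertion at 109 kb (77529240) had 2 of 6 and 4 of 7. Of the others, 3 were deletions at adjacent bases (77393279 to 77393281), each with 2 of 2 tags in IP 1 and 2 of 5 in IP 2, which count as 1 position if adjacent bases are merged. With such merging 13 shared positions were left.

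KCNMA1 also differed from the other members in the kind of mutation listed. Deletions were 34.4% (interval 27.6 to 41.6) of its sense sites in IP 1 and 35.6% (29.05 to 42.7) in IP 2. In the other potassium channel genes they were 15.4% (11.9 to 19.6) and 22.8% (19.0 to 26.9), and over all protein-coding genes 25.7% and 26.5%. A deletion of several bases is listed base by base. With adjacent bases merged, KCNMA1 had 164 and 171 positions, of which 24.4% and 23.98% were deletions, beside 18.3% and 18.7% over all protein-coding genes. Sites with just 2 tags, both mutated, were 67.7% of its sites in IP 1 and 63.4% in IP 2. They were 86.2% and 81.9% in the other potassium channel genes, and 77.1% and 75.5% over all protein-coding genes. Sites with 10 or more tags were 1.59% and 0.990% in KCNMA1, beside 1.49% and 1.58% over all protein-coding genes. Among the potassium channel genes KCNMA1 held the deepest site of IP 2, with 12 tags, and its sites in IP 1 reached 11 tags.

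Among the other calcium- and sodium-activated channels, KCNN4 alone came near the density of KCNMA1. Its relative KCNU1, the pH-sensitive Slo3 channel of sperm, had 2 and 3 sense sites on 152 kb, and 1 base was shared. KCNN4, the intermediate-conductance channel, had 3 in each IP on a gene of only 14.7 kb, which gave 2.04 per 10 kb in both. Of the small-conductance genes, KCNN2 had 0 and 2 on 441 kb, KCNN3 2 and 0 on 173 kb, and KCNN1 had antisense sites only. The KCNN2 span held 8 sites on its strand in IP 2, of which 6 were given to no gene. The sodium-activated KCNT1 and KCNT2 had 0 and 3 and 2 and 6. All 8 genes of this group were named in IP 2 (65.7% of all protein-coding genes) and 5 in both IPs (55.5% of all). A sense site in both IPs was found for 4 (50.8% of all). The median span of the group was 162 kb. Of all genes in the span groups of median 117 kb and 262 kb, 84.4% and 92.2% were named in both.

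Of the 40 voltage-gated pore genes, 18 were named in both IPs (55.5% of all protein-coding genes). The median span of these 40 genes was 34.9 kb. In the span group of median 32.7 kb, 67.9% of all genes were named in both. The voltage-gated genes held 253 and 280 sense sites. KCNH1 (chromosome 1, 210676823 to 211134180, minus strand), the ether-à-go-go channel, had 82 and 91, a density of 1.79 and 1.99 per 10 kb. KCNQ5 (chromosome 6, 72621792 to 73198851, plus strand), a subunit of the slow M-current, had 82 and 73, a density of 1.42 and 1.27. KCNQ3, another M-current subunit, had 22 and 27 on 360 kb. The shared bases of KCNH1 (3) and KCNQ5 (1) had 2 of 2 tags mutated in both IPs. Like KCNMA1, KCNH1 and KCNQ5 carried most of their sites before the midpoint of the gene. KCNQ3 did not, with 36.4% (interval 17.2 to 59.3) in IP 1 and 25.9% (11.1 to 46.3) in IP 2. For KCNH1 the share was 62.2% (interval 50.8 to 72.7) in IP 1 and 56.0% (45.2 to 66.4) in IP 2. For KCNQ5 it was 58.5% (47.1 to 69.3) and 68.5% (56.6 to 78.9). For KCNH1 and for KCNQ5, 1 of the 2 intervals reached below an even split.

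Of their other relatives, several held few sites. Among the KCNH genes, KCNH7 had 1 and 2 sense sites on 467 kb, KCNH8 0 and 2 on 387 kb, and KCNH5 7 and 9 on 403 kb with 1 shared base. KCNH2, which encodes the hERG channel of the heart, was named in neither. Among the KCNQ genes, KCNQ1, known from cardiac muscle and the proximal tubule brush border, had 3 and 5 on 404 kb. The summed density of the KCNH family was 0.501 and 0.572 per 10 kb, and that of the KCNQ family 0.728 in both IPs. KCNH1 gave 82 of 91 and 91 of 104 sites of its family, and KCNQ5 gave 82 of 107 and 73 of 107 of its own. In the Shaker family KCNA, made up mostly of short genes, 6 of 8 genes were named in neither IP and none in both. Of all genes in the span group of median 5.34 kb, 57.4% were named in neither and 17.97% in both. KCNS3 had 14 and 11 sense sites on an annotated 484 kb, but that span held 29 and 31 sites on its strand, of which 15 and 20 were given to no gene in the authors' lists. KCNB2, a delayed rectifier gene, had 3 and 9. The A-current genes KCND2 and KCND3 had 10 and 13 and 1 and 9 sense sites, on 477 kb and 218 kb.

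In the Shaw family KCNC, which encodes fast-activating channels, KCNC4 was given no site on 71.8 kb, and KCNC1 and KCNC2 had 2 and 1 and 0 and 3 sense sites. The silent subunit KCNG3, which has no current of its own, had 3 and 14 sense sites. In IP 2, 10 of the 14 lay in 1 stretch in which neighbours are at most 500 bases apart. Deletions, which are listed base by base, made up 11 of the 14.

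**Figure D3:**
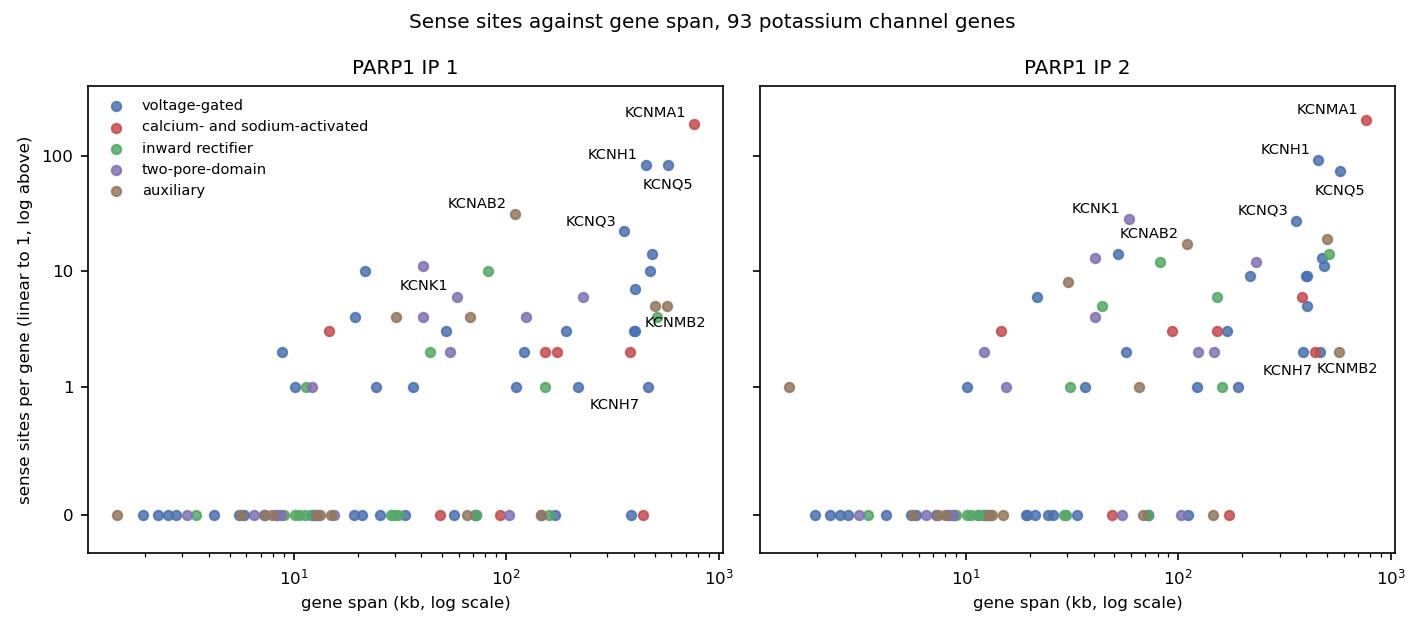
Sense sites per gene (y axis, linear to 1 and log above) against gene span in kb (x axis, log scale) for the 93 potassium channel genes in IP 1 (left) and IP 2 (right), coloured by subunit group. KCNMA1 (189 and 202), KCNH1 (82 and 91) and KCNQ5 (82 and 73) stand above genes of like span such as KCNH7 (1 and 2) and KCNMB2 (5 and 2).

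Of the 16 inward rectifier genes (KCNJ), 5 were named in both IPs (55.5% of all protein-coding genes) and 8 in neither (28.1% of all). None had a shared base, where 14.1% of all protein-coding genes had such a base. The median span of the group was 29.3 kb. In the span group of median 32.7 kb, 67.9% of all genes were named in both. The KCNJ genes held 18 and 39 sense sites, a summed density of 0.152 and 0.330 per 10 kb. KCNJ16, which encodes the Kir subunit that pairs with KCNJ10 in the basolateral membrane of the tubule, had the highest density, with 10 and 12 sense sites or 1.22 and 1.46 per 10 kb. KCNJ15, another basolateral tubule channel, had 1 and 6, and KCNJ10 had none in the sense orientation. KCNJ1, the ROMK channel of the thick limb and collecting duct, had 0 and 1. KCNJ12 had 2 and 5, but its copy KCNJ18 is nearly identical and had no site, so the values of the pair are uncertain. KCNJ4 and KCNJ5 were named in neither IP on 28.9 kb and 29.7 kb. KCNJ6 had 4 and 14 on 514 kb.

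Of the 15 two-pore-domain genes, 7 were named in both IPs (55.5% of all protein-coding genes) and 3 in neither (28.1% of all). The median span of the group was 40.5 kb. In the span group of median 47.2 kb, 75.2% of all genes were named in both. The two-pore-domain genes held 34 and 64 sense sites, a summed density of 0.392 and 0.738 per 10 kb. KCNK3, which encodes an acid-sensitive leak channel (chromosome 2, 26692690 to 26733420, plus strand), had 11 and 13, or 2.70 and 3.19 per 10 kb. It was above the 90th percentile of its span group in both IPs, at 92.0 and 92.6, and KCNMA1 was the other of the 2 genes for which this held. KCNK3 also had the most exon sites of the 93 genes, 3 in IP 1 and 5 in IP 2, with 1 shared base. KCNK1, a leak channel abundant in the kidney, had 6 and 28, or 1.03 and 4.79 per 10 kb, and KCNK6 had 1 and 2. KCNK5, an alkaline-activated channel of the proximal tubule, had 4 in each IP on 40.5 kb, 0.988 per 10 kb in both. KCNK2, a mechanically gated leak channel, had 6 and 12 on 231 kb. KCNK16 and KCNK18 were named in neither.

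Auxiliary subunits held 49 and 48 sense sites over 14 genes. Of these genes 4 were named in both IPs (55.5% of all protein-coding genes) and 5 in neither (28.1% of all). The median span of the group was 22.7 kb. In the span group of median 22.5 kb, 55.9% of all genes were named in both. KCNAB2, a cytoplasmic beta subunit of voltage-gated channels with an oxidoreductase fold, had 31 and 17 on 110 kb, at percentiles 96.1 and 73.5 for its span, and 2 intronic bases were shared. KCNAB1, its relative, had 5 and 19 on 501 kb. Of the beta subunits of the KCNMA1 channel, KCNMB3 had 4 and 8 on 30.3 kb, or 1.32 and 2.64 per 10 kb, KCNMB4 4 and 0, KCNMB2 5 and 2 on 571 kb, and KCNMB1 none. Of these 4 genes 2 were named in both IPs (55.5% of all protein-coding genes). The density of KCNMB3 in IP 2 was close to that of the pore gene, and those of the other 3 lay below it in both IPs. Of the 6 KCNE genes none was named in both, beside 44.6% of all genes in the span group of median 14.9 kb. KCNE4 was given no site, although its span of 147 kb held 2 and 3 sites on its strand that were given to no gene, and KCNE5, with 1 site in IP 2, overlaps ACSL4 on the same strand. KCNE1 had 1 site in IP 2, and its near-identical copy KCNE1B had none, so that pair is uncertain too.

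**Figure D4:**
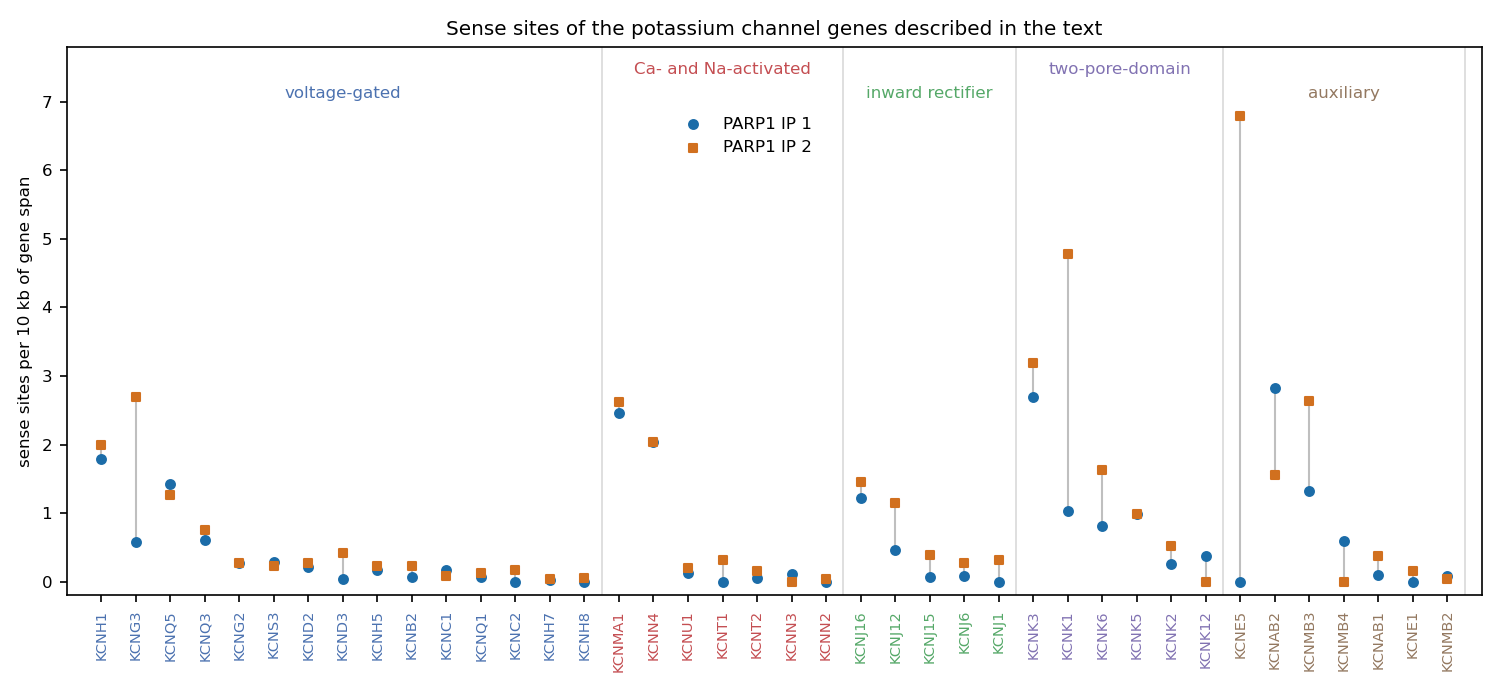
Sense sites per 10 kb of gene span (y axis) of the 40 potassium channel genes with a sense site in either IP whose sites are described here (x axis), by subunit group and then by the mean of the IPs. Circles are IP 1 and squares IP 2, joined by a grey line. KCNMA1, KCNH1, KCNQ5, KCNK3 and KCNJ16 have both points close together, while KCNK1 (1.03 and 4.79), KCNG3 (0.576 and 2.69) and KCNE5 (0 and 6.79, from 1 site) do not.

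The IPs gave the same broad order of genes but not the same counts. Across the 93 genes the sense sites of the IPs had a Spearman rho of 0.754 and the density a rho of 0.637, and among the 53 genes with any sense site the density had a rho of 0.364. These points share gene span and the same pair of libraries. IP 2 gave 54.1% (interval 51.2 to 56.9) of the family's sense sites and 54.7% of those of all protein-coding genes. For 5 of the 53 genes the interval did not cover that share. KCNK1 had 82.4% (65.5 to 93.2), KCNG3 82.4% (56.6 to 96.2), KCNAB1 79.2% (57.8 to 92.9) and KCND3 90% (55.5 to 99.7) of their sites in IP 2, and KCNAB2 35.4% (22.2 to 50.5). Counted in stretches of neighbouring sites, KCNK1 had 6 and 19, KCNAB1 5 and 15, KCNAB2 22 and 13, KCNG3 3 and 5 and KCND3 1 and 5. The intervals were not adjusted for the 53 genes, and sites of 1 stretch are not independent.

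Exons held a small part of the sense sites, 16 (2.90%, interval 1.67 to 4.66) in IP 1 and 22 (3.38%, 2.13 to 5.08) in IP 2, beside 9.36% and 8.77% over all protein-coding genes. Coding sequence held 4 sites in each IP, the 3′ UTR 11 and 17, and the 5′ UTR 1 in each. The 38 exon sites lay in 14 genes. A sense exon site in both IPs was found for 5 genes (14.6% of all protein-coding genes), KCNAB2, KCNH1, KCNK3, KCNQ3 and KCNS3, but 1 base alone was shared, in KCNK3. It is a substitution 66 bases from the annotated start of the gene (26692756), with 2 of 2 tags in each IP, and the sequence around it (chr2:26692741-26692770, plus strand, RefSeq, GRCh38.p14) has the listed base in capitals.
KCNK3 5′ UTR: gctgagcgggtgcccGgcgcggagagcggc

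The exon site with the most mutated tags lay in the coding sequence of KCNS3, a silent subunit that modifies other voltage-gated channels (chromosome 2, 17932241). It was a substitution with 6 of 8 tags mutated in IP 2 and was not listed in IP 1. Deletions and insertions made up 13 of the 38 exon sites, and each of the 13 fell in a run of at least 3 identical bases (interval 75.3 to 100% for 13 of 13), the longest of 9 bases. Of the 25 exon substitutions, 5 did (20%, interval 6.83 to 40.7). Runs of at least 3 identical bases made up 20.4% of the transcripts of these genes. By IP, 4 of 4 and 9 of 9 deletions and insertions of the potassium channel genes lay in such runs, beside 46.0% in IP 1 and 46.4% in IP 2 over all protein-coding genes. The runs are seen in the transcript sequences around the sites (GENCODE release 29, 5′ to 3′, listed base in capitals), which are shown for the KCNS3 substitution and for deletions and insertions.
KCNS3 coding, substitution: caacaagttttccaaGtactaccagaagca
KCNS3 coding, deletion: agtaccgactcctcgTttgaagagtcgtct
KCNK1 coding, deletion: aacttcctggaatccTtttatttttgtttt
KCNH1 3′ UTR, deletion: tgagaagttttaattTctaccccctacagc
KCNH1 3′ UTR, deletion: aaacatcagccccttTcctggaatcctcct
KCNH1 3′ UTR, deletion: attagggaaacaaaaAgttactaggtatgg
KCNMA1 3′ UTR, insertion: tgaaattaaaaaaaaAggagttacaaattt

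In each of the 6 deletions and insertions shown, the capital is part of a run of T or A of 3 to 9 bases. Those not shown include a KCNAB2 insertion in a run of 5 C and a KCNK3 deletion in a run of 5 G. The KCNH1 sites (chromosome 1, 210679056, 210679726 and 210680471) had 2 mutated of 5, 6 and 6 tags, the first and the last in IP 2 and the middle one in IP 1. The KCNK1 site (chromosome 1, 233666885, exon 2 of 3) had 2 of 4 in IP 2, the KCNS3 deletion (chromosome 2, 17931444) 2 of 3 in IP 2, and the KCNMA1 insertion (chromosome 10, 76884893) 2 of 2 in IP 1. Sequences around the intronic sites, which make up most of the list, were not used here.

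Sites antisense to a potassium channel gene numbered 102 of 654 in IP 1 (15.6%, interval 12.9 to 18.6) and 170 of 820 in IP 2 (20.7%, 18.01 to 23.7), beside 11.1% and 15.2% over all protein-coding genes. For KCNMA1 the share was 4.06% (1.77 to 7.84) and 6.48% (3.59 to 10.6). Antisense sites alone named 10 of the genes, a count that is not given here for all protein-coding genes. KCNG2 had 1 sense site in each IP and 9 and 8 antisense sites, KCNK12 had 2 and 0 against 8 and 5, and KCNAB1 had 15 and 11 antisense sites. What is transcribed on the opposite strand there was not tested.

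Partners of the channels and other channel genes were counted for comparison. Of 20 partner genes, 12 were named in both IPs (55.5% of all protein-coding genes) and 4 in neither (28.1% of all). The partners had 0.354 and 0.431 sense sites per 10 kb of summed span. The potassium channel genes had 0.482 and 0.568, and 0.340 and 0.419 without KCNMA1. NEDD4L, a ubiquitin ligase that acts on epithelial channels, had 62 and 78 sense sites and 2 shared bases. Of 61 genes of sodium, calcium, chloride, cation and calcium-release channels, 42 were named in both and 7 in neither. The symbol pattern also takes TRPC4AP and TRPC5OS, which are no channels. This list had 0.316 and 0.423 per 10 kb. The median spans of the partner and other-channel lists were 86.6 kb and 102 kb. Of all genes in the span groups of median 70.6 kb and 117 kb, 80.2% and 84.4% were named in both. The T-type calcium channel CACNA1H had 25 and 22 sense sites and TRPC4 17 and 37, and each had 7 shared bases. Potassium channel genes without KCNMA1 thus lay close to other channel genes in density, but this rested on KCNH1 and KCNQ5. Without those as well, the potassium channel genes had 0.206 and 0.294 per 10 kb. No gene was taken out of the other lists in the same way. All of these lists lay below the 0.766 and 0.924 of protein-coding genes as a whole.

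Markers were read for the labelled cell type. Of 12 renal tubule epithelial markers, 10 were named in both IPs and AQP1 alone was named in neither. Among those named in both, CDH6 had 36 and 52 sense sites, KRT8 4 and 6, LRP2 2 and 4 and EPCAM 1 and 0. The median span of this list was 55.8 kb. In the span group of median 47.2 kb, 75.2% of all genes were named in both. None of 4 markers of other nephron segments, 3 islet markers or 3 leukocyte markers was named in both, beside 55.5% of all protein-coding genes. The median spans of these 3 lists were 36.9, 9.53 and 11.6 kb. Of all genes in the span groups of median 9.64 kb and 32.7 kb, 30.9% and 67.9% were named in both. Of 6 neuronal markers 5 were named in both. SYT1 had 17 and 46 sense sites, SNAP25 7 and 15 and RBFOX3 10 and 16. GAP43 had 0 and 8, STMN2 2 and 0 and TUBB3 0 and 1. The median span of the neuronal list was 93.4 kb. In the span group of median 117 kb, 84.4% of all genes were named in both. Of 6 muscle markers, with a median span of 27.5 kb, 3 were named in both. A sense site in both IPs was found for 3 neuronal and 3 muscle markers (50.8% of all protein-coding genes). The part these played in the counts of potassium channel genes, several of which are known mainly from neurons, was not tested.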

How the data were processed

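Per the labels' protocols, lysates of HK-2 cells were pre-cleared, PARP1 was pulled down with a Flag antibody on magnetic beads, and the RNA was copied with random primers and amplified into paired-end libraries. The submitters' processing notes name bcl2fastq, TopHat2 and GRCh38. Which program called the sites, with which cut-offs, and whether duplicates were removed were not given in the sources used here. For each site the authors deposited whole-number counts of tags and of mutated tags, with an FDR, which is a multiple-testing form of a p-value and reached 0.00909 in IP 1 and 0.00926 in IP 2. Tags over all sites summed to 419675 and 572870, which is not the depth of the libraries.

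Genes and spans came from GENCODE release 29 (GRCh38), on the main chromosomes. Gene and region of a site are the authors'. All sites other than antisense ones count as sense, and shared means the same base and strand in both IPs. Density is sense sites per 10 kb of span, and percentiles rank a gene within its span group, 1 of 10 groups of near-equal size over all protein-coding genes. RefSeq promoter windows matched 68 of the 93 genes. Matching of sites was tested on simulated data. Python 3.11.15, pandas 2.3.3, numpy 2.4.6 and scipy 1.17.1 were used. No comparison between groups was possible, so no test was run.

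The members and lists were chosen with earlier results of these data known. Named by rule were KCNMA1, genes with a shared base or with exon sites in both IPs, the 3 densest genes and the 2 longest genes without a site in each of 5 subunit groups, and the 2 genes with most shared bases in each other list. Any other gene was picked with its values in view, and a few genes of the family are counted but not reported by name here. Alternatives changed the sites used, the way a site was given to a gene, the width of a shared position, the members used and the IPs used.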

Additional observations from a re-analysis of the deposited data

How the results depend on the processing

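The 39 genes named in both IPs fell to 19 with sites of an FDR below the most common one, to 10 with 3 or more mutated tags, to 5 with exon sites only and to 22 with genes free of a same-strand overlap. The count was 34 with sense sites only and 36 with sites given by span, and it ranged from 48 to 54 with either IP left out, where 1 IP is enough. The 8 genes with a shared base fell to 2 with either stricter set of sites and were 8 within 10 bases and 9 on either strand. The median over genes of the mean density of the IPs, 0.0612 per 10 kb, rests on few sites: it was 0 with 3 or more mutated tags, 0.0989 with sites given by span, and ranged from 0 to 0 with either IP left out. The mean of 195.5 KCNMA1 sense sites was 28 with 3 or more mutated tags, and 113 substitutions, 68.5 deletions and 14 insertions made it up. The 15 shared KCNMA1 bases were 2 with 3 or more mutated tags and 19 within 10 bases. Merging adjacent bases, added after the data were seen, gave 13. Without KCNMA1 the family's share of sites found in the other IP fell from 4.71% to 3.03% in IP 1 and from 4.00% to 2.46% in IP 2. The exon share of IP 1 was 4.71% with regions read from the annotation. Fewer sites enter the stricter sets. The cause of the other changes was not tested. No paired analysis was possible because the inputs were not analysed here and the IPs form 1 group.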

Other observations

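Among 19 noncoding or pseudogene entries named after a potassium channel gene, 4 were named in both IPs and 13 in neither. The same counts over all noncoding and pseudogene entries are not given here, so these are not read as a trait of the 19. KCNQ1OT1, a long nuclear RNA that silences neighbouring genes on the paternal chromosome, was among the 13 named in neither. Its annotated span of 91.7 kb within KCNQ1 (chromosome 11, 2608328 to 2699994) held 0 sites on its own strand in either IP and 0 and 2 on the other strand. KCNK15-AS1 had 3 and 6 sense sites on 51130 bases, and KCNMB2-AS1 had 4 and 6 on 333901 bases, while KCNMA1-AS1 and KCNMA1-AS3 had 1 and 1 and 2 and 1. None of these genes had a shared base.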
